A study of Arabidopsis thaliana with 18 samples.

Results

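SnRK1α1-OE rosettes were compared with Col-0 wild-type rosettes at the end of the day (ED), 12 h after dawn, across every gene that was measurable in these libraries. Genes entered the comparison by level alone: 19576 of the 32833 genes in the table had a normalized value of 10 or more in 3 or more of the 6 libraries compared. SnRK1α1-OE is a single Arabidopsis line in the Col-0 background that carries SnRK1α1 behind the constitutive 35S promoter, so an effect of the kinase and an effect of that transgene insertion cannot be told apart. Whole rosettes of 20-d-old soil-grown plants were harvested in a 12-h photoperiod. Each of the 3 libraries per genotype came from a pool of several rosettes, and the other 12 libraries of the series (both lines 24 h after dawn, at the end of the night or EN, as well as sesquiα2, which lacks part of its SnRK1α function, at either time) were used only where they are named. Whole rosettes mix leaf blade, veins, meristem and petiole, and fewer cells of a type and less RNA per cell cannot be told apart in such samples.

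SnRK1 is the plant member of the SNF1/AMPK family of protein kinases, which sense a shortage of carbon and energy. It works as a complex of a catalytic α subunit with β and γ subunits, is activated by upstream kinases, and is inhibited by sugar phosphates such as trehalose 6-phosphate. When active it is known to favour breakdown of proteins, lipids and storage carbohydrate, and to dampen biosynthesis and growth, in large part by changing transcription. At the end of the light period leaves hold their highest sugar and starch contents.

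The 6 libraries held between 35497381 and 40130783 counted reads, and the deposited values put them on a common total. Markers of a leafy rosette were abundant, with the Rubisco small subunit RBCS1A at a mean value of 654200.0 in Col-0 and 758600.0 in SnRK1α1-OE, whereas the root hair genes RHD6, EXPA7, EXPA18 and LRX1 and the senescence gene SAG12 had 0 reads in all 6 libraries. Col-0 replicate 1 lay farthest from its group, with a root mean square deviation from the group mean of 0.42 on the log2 scale over all genes tested, against 0.23 to 0.33 in the other 5 libraries. Fold changes also depended on gene length. The median log2 fold change (SnRK1α1-OE over Col-0) fell from 0.16 in the shortest of 10 equal groups of genes, 42 to 900 bp, to -0.36 in the longest, 3215 to 16614 bp, and over all genes it was -0.12. SnRK1α1-OE replicate 3 departed most from a flat line, from 0.25 in the shortest group to -0.46 in the longest. The part that RNA quality or library preparation has in this slope was not tested. Most list results are therefore given beside their values after a smooth trend on length and GC content had been removed from every library, called trend-removed, and list values are given relative to the median of all genes.

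**Figure D1:**
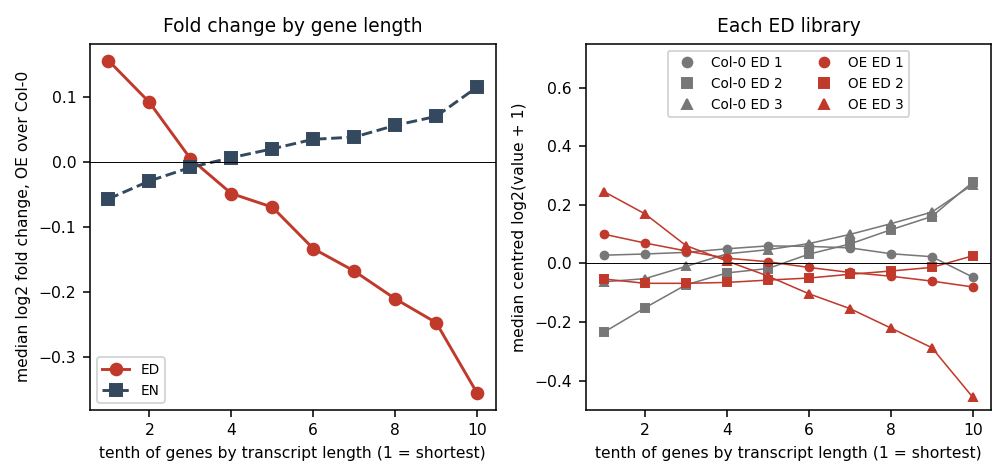
Left, median log2 fold change (SnRK1α1-OE over Col-0) for genes in 10 equal groups by transcript length, at ED (circles) and at EN (squares). Right, median log2(value + 1) of each ED library, centred per gene on its mean over the 6 libraries, for the same groups; circles, squares and triangles are replicates 1, 2 and 3. The ED line runs from 0.16 to -0.36, and SnRK1α1-OE replicate 3 has the steepest slope.

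The targeted gene was read first. SnRK1α1 (KIN10, AT3G01090, chr3:31145-34670 in TAIR10.1) had normalized values of 1740.0, 1707 and 1685 in Col-0 and 32681, 29302 and 30494 in SnRK1α1-OE. The groups stood far apart, and SnRK1α1 rose 18.0-fold (log2 fold change 4.17, SE 0.09, adjusted p = 8.13e-07; limma with Benjamini-Hochberg adjustment, as for every adjusted p here). None of the other 7 genes of the complex list passed the test. SnRK1α2 (KIN11), the second catalytic subunit, had 1405, 1506 and 1503 in Col-0 and 1318, 1311 and 1017 in SnRK1α1-OE, so that all overexpressor libraries lay below all wild-type libraries (log2 fold change -0.29, SE 0.13, adjusted p = 0.209). SNF4, the regulatory βγ subunit, had 1713, 2120.3 and 2074 in Col-0 and 1620.3, 1621 and 1340.2 in SnRK1α1-OE (log2 fold change -0.37, SE 0.13, adjusted p = 0.146). GRIK1, a kinase that phosphorylates the activation loop of SnRK1α, differed by -0.30 (SE 0.12, adjusted p = 0.177) on the log2 scale. Trend-removed values for KIN11, SNF4 and GRIK1 were -0.15, -0.08 and -0.19, all nearer to 0.

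Across the transcriptome 35 genes were called, that is, they passed an adjusted p of 0.05 with a change of at least 2-fold, 25 of them higher (0.128% of the genes tested) and 10 lower (0.0511%). An adjusted p below 0.05 without the fold limit was reached by 35 higher (0.179%) and 19 lower (0.0971%) genes. Many more genes separated the groups without passing the adjustment for 19576 tests: all 3 SnRK1α1-OE libraries lay above all 3 Col-0 libraries for 2155 genes (11.0%) and below them for 3993 (20.4%), and 4880 genes had an unadjusted p below 0.05. After trend removal the corresponding shares were 16.4% above and 10.6% below, and without Col-0 replicate 1 they were 18.2% and 38.0%. At EN, with 3 libraries per group, they were 7.01% and 3.28%. A fit that took its estimate of spread from all 18 libraries of the series gave an adjusted p below 0.05 for 647 higher (3.31%) and 1257 lower (6.42%) genes. These percentages are the background against which the counts of each gene list are read below. Median-ratio scaling in place of the common total gave 69 higher and 13 lower called genes. Of the 35 called genes, 28 were also called after trend removal, 33 in an edgeR quasi-likelihood test on the reads recovered from the table, and 33 without Col-0 replicate 1. Only SnRK1α1, CSLA1 and CYP21-2 were called whichever of the 6 libraries was left out.

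**Figure D2:**
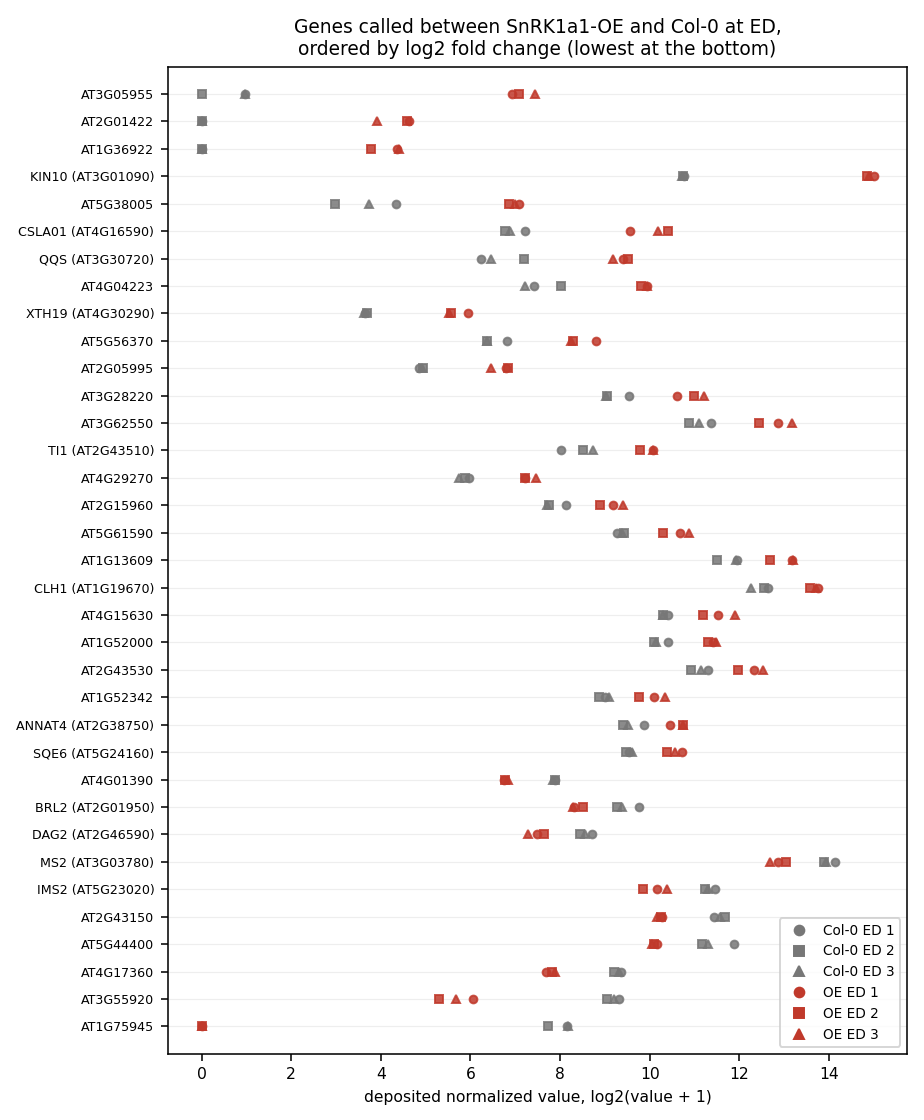
Normalized value, as log2(value + 1), of the 35 called genes in each of the 6 ED libraries; grey marks are Col-0, red marks SnRK1α1-OE, and circles, squares and triangles are replicates 1, 2 and 3. In every row the 3 red marks lie apart from the 3 grey marks, with AT3G05955 at the top and AT1G75945, which has 0 reads in SnRK1α1-OE, at the bottom. TI1, DAG2, IMS2 and ANNAT4 are annotation names of ATTI1, DOF2.5, MAM3 and ANN4.

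Several of the called genes encode no known protein. AT5G38005, annotated as a noncoding RNA on chromosome 5, had values of 19.3, 6.87 and 12.2 in Col-0 and 135, 115 and 126 in SnRK1α1-OE and rose 9.82-fold (log2 fold change 3.3, SE 0.37, adjusted p = 0.0206). AT4G04223, another noncoding RNA, had 169, 259.9 and 149 in Col-0 and 988, 892 and 987 in SnRK1α1-OE (log2 fold change 2.34, SE 0.20, adjusted p = 0.0059). AT2G05995, likewise noncoding, had 27.7, 29.7 and 29.3 in Col-0 and 109, 114 and 86.8 in SnRK1α1-OE (log2 fold change 1.79, SE 0.23, adjusted p = 0.0317). All these RNAs were separate from wild type in every library of the line. The 250 bases before AT5G38005 and before AT4G04223 hold long stretches in common, and whether their transcripts share reads was not tested. AT2G01422 (noncoding) and AT1G36922 (an uncharacterized protein) had 0 reads in all 3 Col-0 libraries and 58 and 50 reads in the 3 SnRK1α1-OE libraries together, at least 21.1-fold and 18.2-fold higher when 3 reads over the Col-0 group are taken as the floor. AT1G75945 showed the reverse, with 816 reads over the Col-0 group and 0 over SnRK1α1-OE, at least 250-fold lower on the same floor. A gene with 0 reads in a whole group passes the filter on level only through the other group. For AT2G01422, AT1G36922 and AT1G75945 the filter itself therefore fixed the non-overlap, and their calls are descriptions. The same holds for AT3G05955, which reached the value of 10 only in the SnRK1α1-OE libraries. AT1G52342, an uncharacterized protein, had 511, 469.8 and 542 in Col-0 and 1096, 867 and 1293 in SnRK1α1-OE (log2 fold change 1.08, SE 0.16, adjusted p = 0.0491). At EN the RNAs AT4G04223 and AT3G05955 were called in the same direction, as were QQS, an orphan gene tied to carbon and nitrogen allocation, and the F-box gene AT5G56370.

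Genes of the cell wall were called in both directions. CSLA1, a member of the family that makes mannan backbones, had values of 148, 108 and 117 in Col-0 and 755, 1365 and 1162 in SnRK1α1-OE, and the line was 8.56-fold higher (log2 fold change 3.10, SE 0.23, adjusted p = 0.00289). At EN its values were 5.80, 4.22 and 5.85 in Col-0 and 1.81, 1.95 and 50.3 in SnRK1α1-OE, so that only 1 library of the line was raised there. XTH19, which cuts and rejoins xyloglucan chains, was low at 11.5, 11.9 and 11.3 in Col-0 and 60.6, 46.5 and 45.0 in SnRK1α1-OE (log2 fold change 2.03, SE 0.30, adjusted p = 0.0498). In the other direction, the extensin-like gene AT2G43150 had 2754, 3304 and 3019.7 in Col-0 and 1235, 1219 and 1137 in SnRK1α1-OE and was lower in every library of the line (log2 fold change -1.33, SE 0.11, adjusted p = 0.00378). AT5G44400, a berberine bridge enzyme-like oxidase, fell from 3795, 2298 and 2512 in Col-0 to 1153, 1092 and 1055 (log2 fold change -1.35, SE 0.18, adjusted p = 0.0393). Of 23 xyloglucan endotransglucosylase genes tested 7 lay above and 2 below without overlap (7 and 2 after trend removal). For 24 cellulose synthase-like genes these counts were 5 and 5 (7 and 1), and for 18 expansins 4 and 6 (4 and 5). The shares over all genes were 11.0% above and 20.4% below, or 16.4% and 10.6% after trend removal.

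Further called genes encode small secreted proteins, a lectin, a chlorophyllase and TRAF-like proteins. The trypsin inhibitors ATTI1 and ATTI3, small proteins that block digestive proteases of insects, are neighbours on chromosome 2 with 2250 bp between them. ATTI1 (AT2G43510, chr2:18066960-18067860) had 259, 367 and 426 in Col-0 and 1078, 884 and 1082 in SnRK1α1-OE, and ATTI3 (AT2G43530, chr2:18070110-18070523) had 2513, 1943 and 2274 in Col-0 and 5104, 3982 and 5869.9 in SnRK1α1-OE. Both rose in every library, 2.94-fold (log2 fold change 1.55, SE 0.19, adjusted p = 0.03) and 2.21-fold (log2 fold change 1.14, SE 0.16, adjusted p = 0.0469). AT1G13609, annotated as defensin-like, is listed by the authors as IRP4, a gene that rises in iron deficiency. It had 3965, 2896 and 3906 in Col-0 and 9263, 6594 and 9369.5 in SnRK1α1-OE (log2 fold change 1.22, SE 0.18, adjusted p = 0.0491). JAL5, a mannose-binding jacalin lectin, had 1367, 1100.2 and 1129 in Col-0 and 2725, 2522 and 2842 in SnRK1α1-OE (log2 fold change 1.17, SE 0.12, adjusted p = 0.0137). CLH1, a chlorophyllase that removes the phytol tail of chlorophyll when leaves are damaged, had 6365, 5957 and 4923 in Col-0 and 13922, 12266 and 13469 in SnRK1α1-OE and rose 2.31-fold (log2 fold change 1.21, SE 0.12, adjusted p = 0.0137). A pair of TRAF-like genes went opposite ways: AT3G28220 had 737, 531 and 523 in Col-0 and 1552, 2020.2 and 2363 in SnRK1α1-OE (log2 fold change 1.72, SE 0.19, adjusted p = 0.0206), and AT4G01390 had 236, 235 and 229.6 in Col-0 and 107, 109 and 113 in SnRK1α1-OE (log2 fold change -1.08, SE 0.14, adjusted p = 0.0378). AT4G01390 overlaps AT4G01370 on the opposite strand, and since the strand setting of the counting is not given in the sources used here, their reads cannot be told apart.

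Genes of signalling and transcription were called in both directions. ERF107 (AT5G61590), a transcription factor of the ethylene response factor family, had 617, 685 and 670.1 in Col-0 and 1633, 1254 and 1889.6 in SnRK1α1-OE (log2 fold change 1.26, SE 0.16, adjusted p = 0.03). ANN4, an annexin that binds membranes with calcium, rose from 931, 675 and 732 to 1391, 1725 and 1702 (log2 fold change 1.05, SE 0.15, adjusted p = 0.0487). The F-box gene AT5G56370 had 111, 82.2 and 82.0 in Col-0 and 446, 311 and 303 in SnRK1α1-OE (log2 fold change 1.92, SE 0.21, adjusted p = 0.0206), and its neighbour AT5G56380, 661 bp away and of the same family, also passed the adjusted p at 489.8, 448 and 469.7 in Col-0 and 827, 873 and 764 in SnRK1α1-OE (log2 fold change 0.81, SE 0.11, adjusted p = 0.0378). Lower in the line were BRL2, a receptor kinase of the brassinosteroid receptor family known from procambial cells, at 868, 617 and 663 in Col-0 and 318, 364 and 313 in SnRK1α1-OE (log2 fold change -1.10, SE 0.15, adjusted p = 0.0445), and DOF2.5, a Dof zinc finger factor, at 417, 349 and 377 in Col-0 and 178, 199 and 155 in SnRK1α1-OE (log2 fold change -1.10, SE 0.15, adjusted p = 0.0393). BRL2 is a long gene, and its trend-removed change of -0.71 no longer passed (adjusted p = 0.105). Of 17 Dof-type zinc finger genes tested, DOF2.5 among them, 10 lay below Col-0 without overlap and 1 above, against 20.4% and 11.0% of all genes. The family median was -0.38 relative to all genes, and after trend removal it was -0.50. Only 1 member passed the adjusted p. The family was among the lowest of 163 families ranked on these same values, so its count is a description. The membrane protein gene AT4G15630 was higher, at 1358, 1254 and 1265 in Col-0 and 2923, 2347 and 3846 in SnRK1α1-OE (log2 fold change 1.2, SE 0.17, adjusted p = 0.0469), and so was AT2G15960, annotated as a stress-induced protein, at 279, 214 and 207 in Col-0 and 579.6, 473 and 673 in SnRK1α1-OE (log2 fold change 1.30, SE 0.18, adjusted p = 0.0397).

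Several enzymes were called as well. MS2, a cytosolic methionine synthase that makes methionine with a folate cofactor, had 17851, 15097 and 15668 in Col-0 and 7429.5, 8446 and 6546 in SnRK1α1-OE and fell to 0.46 of the Col-0 level (log2 fold change -1.12, SE 0.12, adjusted p = 0.0206). PURU2, a mitochondrial deformylase of 10-formyl tetrahydrofolate, had 658, 591 and 631 in Col-0 and 205, 226 and 236 in SnRK1α1-OE (log2 fold change -1.49, SE 0.12, adjusted p = 0.00378); it overlaps AT4G17350 on the opposite strand. CYP21-2, a cyclophilin that turns peptide bonds at proline, was 634, 529 and 591 in Col-0 and 65.7, 38.3 and 50.2 in SnRK1α1-OE (log2 fold change -3.51, SE 0.21, adjusted p = 0.00107), and overlaps AT3G55910 on the opposite strand. These lower levels of PURU2 and CYP21-2 were found again at EN, where the log2 fold changes were -1.84 and -4.08, whereas MS2 at EN had a log2 fold change of 0.49. SQE6, a member of the squalene epoxidase family by its name, rose from 738, 713 and 777 to 1675, 1337 and 1507 (log2 fold change 1.01, SE 0.12, adjusted p = 0.0229). AT4G29270, an acid phosphatase of the HAD family, had 61.3, 57.5 and 52.8 in Col-0 and 148, 149 and 175 in SnRK1α1-OE (log2 fold change 1.44, SE 0.18, adjusted p = 0.0348).

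Promoter sequences of the called genes were scanned for letters known from sugar, light and stress responses. A window of 250 bases before the annotated start was read for 19423 tested genes from RefSeq TAIR10.1, on both strands. SnRK1α1 itself was left out of the counts for called genes. The G-box CACGTG, bound by bZIP and bHLH factors, was present in 7.31% of these windows, in 4 of the other 24 called higher genes (16.7%) and in 0 of 10 called lower genes. The evening element AAAATATCT, known from clock-controlled genes, occurred in 2.55% of all windows, in 1 of 24 higher genes (4.17%) and in 2 of 10 lower genes (20.0%). The W-box core TTGACC, bound by WRKY factors, occurred in 12.1% of all windows, in 5 of 24 (20.8%) and in 3 of 10 (30%). With so few windows these are descriptions, and a match is not a binding site. Those with a G-box included AT3G28220 and AT4G29270, whose windows follow as examples of the sequences behind that count, 5′ to 3′ on the strand of the gene and ending at the base before the start, with the G-box in capitals.
AT3G28220 (chr3:10523931-10524180, plus strand): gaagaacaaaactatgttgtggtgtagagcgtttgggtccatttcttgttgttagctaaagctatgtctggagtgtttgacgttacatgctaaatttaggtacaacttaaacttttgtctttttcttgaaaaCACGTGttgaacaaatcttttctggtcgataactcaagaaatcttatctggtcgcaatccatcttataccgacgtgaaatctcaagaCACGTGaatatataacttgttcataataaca
AT4G29270 (chr4:14424899-14425148, minus strand): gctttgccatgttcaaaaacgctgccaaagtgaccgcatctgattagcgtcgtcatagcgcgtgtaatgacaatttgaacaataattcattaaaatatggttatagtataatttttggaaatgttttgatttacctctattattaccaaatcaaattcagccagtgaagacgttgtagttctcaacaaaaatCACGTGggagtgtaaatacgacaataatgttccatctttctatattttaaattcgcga
AT3G28220 has 2 copies, starting 118 and 31 bases before the gene, and AT4G29270 has 1 copy 58 bases before it.

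Beyond single genes, lists of pathway members and families were followed through all 6 libraries. For each list the median of its members was taken in each library, centred per gene on the mean of the 6 libraries and set relative to the same median of all genes. The plot of list levels by library shows how far the libraries of a group agree. The lists were drawn up with earlier results of these libraries known, and their counts are therefore descriptions.

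**Figure D3:**
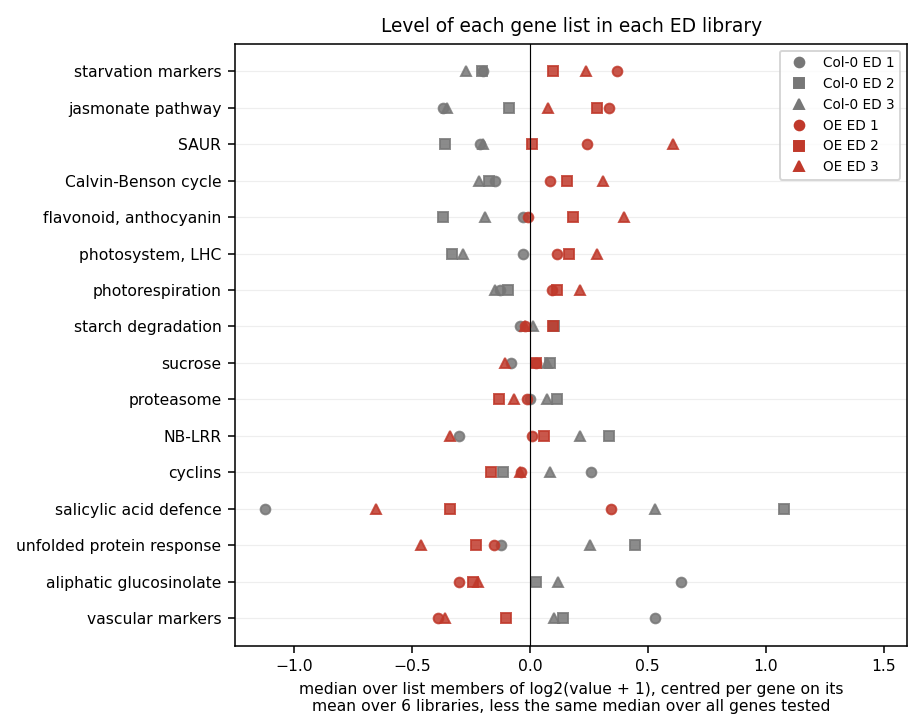
Median level of 16 gene lists in each ED library, as log2(value + 1) centred per gene on its mean over the 6 libraries and less the median of all genes; grey marks are Col-0, red marks SnRK1α1-OE. For the starvation markers, jasmonate, SAUR, Calvin-Benson, photosystem, photorespiration, unfolded protein response, glucosinolate and vascular lists the red and grey marks do not overlap, whereas the salicylic acid list runs from -1.12 to 1.08 within Col-0 alone.

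Genes that SnRK1 is known to induce in starving cells lay above wild type. The list of 26 such markers, drawn from general knowledge of dark- and sugar-starvation responses, had 25 members tested, of which 12 lay above Col-0 without overlap (48.0%, against 11.0% of all genes) and 1 below, or 15 and 1 after trend removal. Its level by library was -0.20, -0.20 and -0.27 in Col-0 and 0.37, 0.10 and 0.24 in SnRK1α1-OE, and the median fold change was 0.63 above that of all genes, or 0.45 after trend removal and 0.50 without Col-0 replicate 1. Only the universal stress protein gene AT3G62550 was called. In the 18-library fit 10 members passed upward and 1 downward, where 3.31% and 6.42% of all genes did. DRM2, a dormancy-associated gene, had 3212, 2250.0 and 2276 in Col-0 and 5355, 4610.4 and 6019.6 in SnRK1α1-OE (log2 fold change 1.06, SE 0.17, adjusted p = 0.0568; adjusted p = 0.00662 in the 18-library fit). TPS9, a class II trehalose phosphate synthase-like protein, had 258, 255 and 267 in Col-0 and 486, 402 and 405 in SnRK1α1-OE (log2 fold change 0.72, SE 0.13, adjusted p = 0.0574; 0.00492 in the 18-library fit). The exception was PRODH1, a proline dehydrogenase that feeds proline into respiration, which had 562, 663 and 626 in Col-0 and 360.3, 394 and 291 in SnRK1α1-OE and was lower in every library (log2 fold change -0.83, SE 0.14, adjusted p = 0.0574; 0.0135 in the 18-library fit). At EN the same list had a median of -0.09 relative to all genes, with 5 of 25 members above and 1 below, against 7.01% and 3.28% of all genes.

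Members of the trehalose phosphate synthase family differed in direction. TPS1, the active synthase, had 1851, 2004 and 2028 in Col-0 and 1429.9, 1559 and 1077 in SnRK1α1-OE, and TPS5, a class II member, had 1962, 2137 and 2274 in Col-0 and 1501, 1714 and 1705 in SnRK1α1-OE; both lay below Col-0 without passing the test (-0.55 (SE 0.15, adjusted p = 0.0931) and -0.37 (SE 0.11, adjusted p = 0.104)), and with the length trend removed their values were -0.16 and -0.08. TPS8, also class II, lay above at 553, 651 and 588 in Col-0 and 999.5, 936 and 788 in SnRK1α1-OE (log2 fold change 0.60, SE 0.13, adjusted p = 0.071), and so did TPS9. After trend removal TPS8 and TPS9 passed the test with log2 fold changes of 0.85 and 1.04. TPS1 and TPS5 overlap genes on the opposite strand, as do BAM3, BAM6, CFBP1, PnsL2, NPR1, RPN12a, IRX3 and XCP1 among the list members named below.

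Of the 22 sucrose genes tested 5 lay above (22.7%) and 9 below (40.9%) without overlap, against 11.0% and 20.4% of all genes. After trend removal the counts were 8 and 6, against 16.4% and 10.6% of all genes. The list median differed from that of all genes by -0.15, or 0.05 after trend removal. SUC2, the proton symporter that loads sucrose into companion cells, had 6118, 6390.4 and 6292 in Col-0 and 3600.0, 3948 and 3352 in SnRK1α1-OE and fell (log2 fold change -0.79, SE 0.10, adjusted p = 0.03; trend-removed -0.54). AAP6, an amino acid permease of the vasculature that is not on this list, fell from 2686, 2206 and 2207 to 1286, 1274 and 1182 (log2 fold change -0.92, SE 0.11, adjusted p = 0.03). SWEET11, which releases sucrose from phloem parenchyma, had 7927, 6923 and 7429.8 in Col-0 and 5361, 5595 and 5387 in SnRK1α1-OE (log2 fold change -0.44, SE 0.09, adjusted p = 0.0698), and SUS1, a sucrose synthase, had 3193, 4131 and 3862 in Col-0 and 2439, 2342 and 2317 in SnRK1α1-OE (log2 fold change -0.65, SE 0.12, adjusted p = 0.0586). The cytosolic fructose-1,6-bisphosphatase CYFBP, an enzyme of sucrose synthesis, lay above at 18255, 16932 and 17663 in Col-0 and 24455, 22635 and 26802 in SnRK1α1-OE (log2 fold change 0.48, SE 0.10, adjusted p = 0.0672).

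A list of 8 vascular markers, SUC2 among them, lay lower too. Every member had a negative log2 fold change, and 6 lay below Col-0 without overlap (75%, against 20.4% of all genes), but 2 after trend removal. The summed value of the list was 24890, 20320 and 21530 in Col-0 and 14240, 15960 and 13350 in SnRK1α1-OE, so the groups did not overlap. AHA3, a plasma membrane proton pump of companion cells, had 7382, 7615 and 8229.6 in Col-0 and 5395, 6359.9 and 4866 in SnRK1α1-OE (log2 fold change -0.49, SE 0.12, adjusted p = 0.0846), the cellulose synthase IRX3 of secondary walls 465, 324 and 328 in Col-0 and 217, 258 and 211 in SnRK1α1-OE (log2 fold change -0.69, SE 0.18, adjusted p = 0.0908), and the xylem peptidase XCP1 1000.2, 540.1 and 621 in Col-0 and 423, 428 and 478 in SnRK1α1-OE (log2 fold change -0.65, SE 0.22, adjusted p = 0.133). AHA3 and IRX3 are long genes whose trend-removed values shrank to -0.16 and -0.30, and the list median went from -0.54 to -0.35. Among other markers the 4 trichome genes had levels by library of -0.48, -0.33 and -0.28 in Col-0 and 0.40, 0.35 and 0.07 in SnRK1α1-OE, without overlap, and the 8 guard cell genes of -0.02, -0.15 and -0.02 in Col-0 and 0.04, 0.18 and 0.02 in SnRK1α1-OE, also apart though by little, while the summed values of both lists overlapped. Summed levels of shoot apex and senescence markers overlapped too, at 1044 to 1797 in Col-0 and 989 to 1167 in SnRK1α1-OE for the shoot apex and at 199.6 to 2150 and 620.1 to 1396 for senescence. The part of a smaller share of vascular tissue in the lower SUC2 and AAP6 values was not tested. At EN the list median was -0.07, with 0 of 8 members separate.

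The counts for starch degradation changed with the length trend. Of 23 genes 3 lay above and 4 below without overlap, but 11 and 0 after trend removal, and the list median relative to all genes went from 0.00 to 0.15. Over all genes 11.0% lay above and 20.4% below, and after trend removal 16.4% and 10.6%. The 3 above before trend removal were BAM5, a beta-amylase of the phloem, at 657, 150.4 and 219 in Col-0 and 773, 1397 and 1047 in SnRK1α1-OE, BAM6 at 879, 728 and 723 in Col-0 and 1236, 1145 and 1358 in SnRK1α1-OE and LSF2, a phosphatase that removes phosphate from starch, at 2057, 1376 and 1589.6 in Col-0 and 2859, 2495 and 4033 in SnRK1α1-OE. None of these 3 passed the main test (1.90 (SE 0.57, adjusted p = 0.13), 0.68 (SE 0.12, adjusted p = 0.0586) and 0.89 (SE 0.21, adjusted p = 0.0802)). BAM3, the main chloroplast beta-amylase of leaves at night, had 22823, 24757 and 24949 in Col-0 and 19949, 19066 and 20616 in SnRK1α1-OE (log2 fold change -0.28, SE 0.09, adjusted p = 0.126). Among 17 starch synthesis genes 2 lay above and 4 below (7 and 2 after trend removal), and of 19 genes for the breakdown of branched-chain amino acids and lysine 4 and 2 (8 and 1).

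Genes of carbon fixation lay higher. All 21 genes of the Calvin-Benson cycle tested had a positive log2 fold change. Of these 14 lay above Col-0 without overlap (66.7%, against 11.0% of all genes), 0 below. The level by library was -0.15, -0.17 and -0.21 in Col-0 and 0.08, 0.16 and 0.31 in SnRK1α1-OE. The median stood 0.41 above that of all genes (0.40 after trend removal). No member passed the main test, while 6 passed upward in the 18-library fit, where 3.31% of all genes did. CP12-2, a redox switch that holds 2 enzymes of the cycle inactive in the dark, had 18856, 16723 and 17802 in Col-0 and 35318, 28339 and 44702 in SnRK1α1-OE (log2 fold change 1.0, SE 0.16, adjusted p = 0.0574). The Rubisco small subunit genes RBCS2B and RBCS3B had means of 109196 ± 2953 in Col-0 and 159235 ± 16003 in SnRK1α1-OE and of 205076 ± 14716 in Col-0 and 286060.4 ± 25239 in SnRK1α1-OE (SD, n = 3 per group); they share long stretches of sequence, so reads may be split among the family. CFBP1, the chloroplast fructose-1,6-bisphosphatase, had 41889, 36116 and 37405 in Col-0 and 55416, 49037 and 64154 in SnRK1α1-OE (log2 fold change 0.54, SE 0.12, adjusted p = 0.0776). These differences were between 1.39- and 2.0-fold and were seen in every library.

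Photorespiration, which recycles the product of the oxygenation reaction of Rubisco, followed. Of 21 genes 12 lay above without overlap (57.1%, against 11.0% of all genes) and 1, PURU2, below. GDCH1, the H protein of glycine decarboxylase, had 22125, 18143 and 20898 in Col-0 and 33007, 26597 and 38304 in SnRK1α1-OE (log2 fold change 0.67, SE 0.15, adjusted p = 0.0753). HPR1, the peroxisomal hydroxypyruvate reductase, had 28086, 23189 and 26745 in Col-0 and 32134, 31411 and 33954 in SnRK1α1-OE, and GOX2, a glycolate oxidase, had 31334, 30027 and 30070.1 in Col-0 and 36332, 34898 and 39146 in SnRK1α1-OE; their log2 fold changes were 0.33 (SE 0.10, adjusted p = 0.123) and 0.27 (SE 0.09, adjusted p = 0.132). After trend removal 17 members lay above and 1 below.

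Nuclear genes for photosystems and light-harvesting proteins showed the same direction. Of 61 tested, 60 had a positive log2 fold change, 30 lay above without overlap (49.2%, against 11.0% of all genes) and 0 below. After trend removal 35 lay above, against 16.4% of all genes, and 0 below. No member passed the main test, and 26 passed upward in the 18-library fit, where 3.31% of all genes did. Levels by library were -0.03, -0.33 and -0.28 in Col-0 and 0.12, 0.17 and 0.29 in SnRK1α1-OE, with Col-0 replicate 1 the highest of its group. PSBO2, a stabilizing subunit of the oxygen-evolving complex, had 37196, 32182 and 33991 in Col-0 and 62161, 48966 and 67574 in SnRK1α1-OE (log2 fold change 0.78, SE 0.13, adjusted p = 0.0574). PnsL2, a subunit of the chloroplast NADH dehydrogenase-like complex, had 3854, 3150.0 and 3648 in Col-0 and 6239, 5156 and 6759 in SnRK1α1-OE (log2 fold change 0.77, SE 0.13, adjusted p = 0.0574), and Lhca6, which links that complex to photosystem I, had 6091, 5156 and 5276 in Col-0 and 8512, 7395 and 9484 in SnRK1α1-OE (log2 fold change 0.62, SE 0.12, adjusted p = 0.0653). Without Col-0 replicate 1, 54 of the 61 lay above, where 18.2% of all genes did. At EN 0 of 60 lay above and 7 below Col-0, and of the Calvin-Benson list 0 and 2 of 21, where 7.01% of all genes lay above and 3.28% below.

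**Figure D4:**
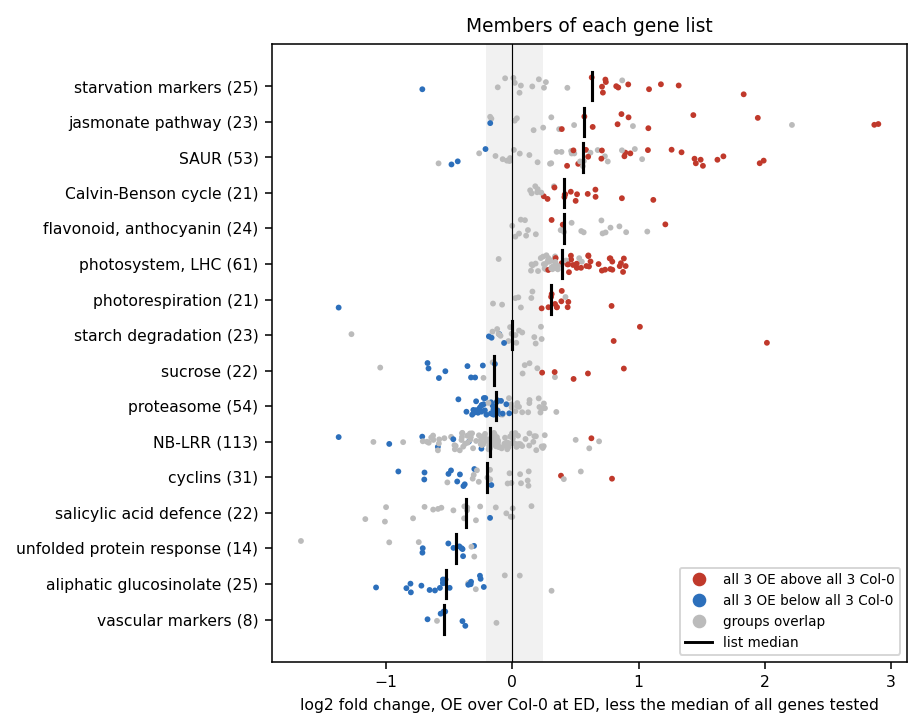
Log2 fold change (SnRK1α1-OE over Col-0 at ED) of every tested member of 16 gene lists, less the median of all genes; red points are genes whose 3 SnRK1α1-OE values all lie above the 3 Col-0 values, blue points all below, grey points overlap, black bars are list medians and the shaded band spans the middle 50% of all genes. The number tested is given beside each list, and the medians run from 0.63 for the starvation markers to -0.54 for the vascular markers.

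Genes of jasmonate synthesis and response lay higher. AOC2, an allene oxide cyclase, had 14708, 13357 and 11346 in Col-0 and 26378, 25989 and 23883 in SnRK1α1-OE and rose 1.94-fold (log2 fold change 0.96, SE 0.12, adjusted p = 0.03), and JAZ9, a repressor that jasmonate itself induces, had 3040.0, 3303 and 2674 in Col-0 and 5504, 5129 and 5045 in SnRK1α1-OE (log2 fold change 0.80, SE 0.11, adjusted p = 0.0393). The preceding enzyme AOS had 14213, 12465 and 10126 in Col-0 and 19594, 20937 and 20629 in SnRK1α1-OE (log2 fold change 0.75, SE 0.13, adjusted p = 0.0574), and AOC1 had 924, 1196 and 593 in Col-0 and 2139, 2276 and 2076 in SnRK1α1-OE (log2 fold change 1.31, SE 0.23, adjusted p = 0.0574). AOC1 and AOC2 are closely related neighbours among which reads may be split. Of 23 jasmonate genes tested, 11 lay above without overlap (47.8%, against 11.0% of all genes) and 1 below. The list median was 0.57 above that of all genes, or 0.60 after trend removal. The storage protein genes VSP1 and VSP2, classic jasmonate targets named here after their values were seen, had mean values of 443 and 880.4 in Col-0 and 2669 and 4455 in SnRK1α1-OE, both without overlap. COI1, the jasmonate receptor, was the member below, with a log2 fold change of -0.29.

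Defensins, small antifungal proteins of which several respond to jasmonate with ethylene, were mostly silent: only 14 of 113 annotated genes were tested. A gene that is low in Col-0 passes that filter only through the line, so no share is read from them. PDF1.3 had 153, 297 and 378 in Col-0 and 2163, 905 and 3706 in SnRK1α1-OE (log2 fold change 2.90, SE 0.59, adjusted p = 0.0816), PDF1.2 had 368, 535 and 791 in Col-0 and 2327, 1120.1 and 2670.3 in SnRK1α1-OE (log2 fold change 1.83, SE 0.40, adjusted p = 0.0846), and PDF1.2c had 78.1, 164 and 130.5 in Col-0 and 745, 207 and 896 in SnRK1α1-OE (log2 fold change 2.11, SE 0.60, adjusted p = 0.118). SnRK1α1-OE replicate 2 was the lowest of its group for all 3 genes, and the family members are close copies that can share reads.

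The synthesis of aliphatic glucosinolates, the sulfur-rich defence compounds made from methionine in Arabidopsis, lay lower through most of its steps. Of 25 genes tested, 24 had a negative log2 fold change and 20 lay below Col-0 without overlap (80.0%, against 20.4% of all genes), 0 above. Levels by library were 0.64, 0.03 and 0.12 in Col-0 and -0.30, -0.24 and -0.22 in SnRK1α1-OE, with Col-0 replicate 1 the highest by far. The list median was -0.53 relative to all genes, -0.50 after trend removal and -0.33 without that library. Without it 20 genes still lay below, where 38.0% of all genes did. MAM3, a chain elongation enzyme, had 2793, 2403 and 2530.1 in Col-0 and 1151, 921 and 1328 in SnRK1α1-OE and was called (log2 fold change -1.2, SE 0.15, adjusted p = 0.03). CYP79F1, a cytochrome P450 that starts the core structure, had 19083, 12582 and 14468 in Col-0 and 8109, 8339 and 7028 in SnRK1α1-OE (log2 fold change -0.96, SE 0.16, adjusted p = 0.0574), and its neighbour CYP79F2 had 592, 503 and 556 in Col-0 and 362, 344 and 331 in SnRK1α1-OE (log2 fold change -0.67, SE 0.12, adjusted p = 0.0574). BAT5, the transporter that carries the chain elongation intermediates across the chloroplast envelope, had 3586, 2310.4 and 2659 in Col-0 and 1413, 1609.7 and 1415 in SnRK1α1-OE (log2 fold change -0.92, SE 0.16, adjusted p = 0.0574). The regulators MYB28, MYB29 and MYB76 had log2 fold changes of -0.67, -0.92 and -0.65, each without overlap. At EN 9 of the 25 genes lay above Col-0 and 0 below, against 7.01% and 3.28% of all genes, and the difference between ED and EN itself passed the test for CYP79F1 and BAT5.

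Genes of protein folding in the endoplasmic reticulum were lower at ED. All 14 genes of the unfolded protein response list had a negative log2 fold change. Of these 9 lay below without overlap (64.3%, against 20.4% of all genes) and 0 above. Without Col-0 replicate 1 all 14 lay below, where 38.0% of all genes did. After trend removal 6 lay below and 0 above, against 10.6% and 16.4% of all genes. No member passed the main test. The chaperone BIP1 had 37929.8, 42505 and 37159 in Col-0 and 26055, 30028 and 20891 in SnRK1α1-OE (log2 fold change -0.62, SE 0.14, adjusted p = 0.078), calnexin CNX1 had 26303, 32605 and 29735 in Col-0 and 21181, 21299 and 16788 in SnRK1α1-OE (log2 fold change -0.58, SE 0.13, adjusted p = 0.0765), and the calreticulins CRT1a and CRT1b had 17537, 17731 and 17109 in Col-0 and 12814, 12831 and 11156 in SnRK1α1-OE and 12617, 16069.7 and 15112 in Col-0 and 10887, 10131 and 9663 in SnRK1α1-OE. The list median was -0.44 relative to all genes and -0.37 after trend removal. In the 18-library fit 6 members passed, all lower, where 6.42% of all genes passed downward. At EN 6 of 14 lay above Col-0 and 0 below, against 7.01% and 3.28% of all genes, and the difference between ED and EN for CRT1a passed the test.

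Proteasome subunit genes showed small and uniform differences. Of 54 tested 34 lay below Col-0 without overlap (63.0%, against 20.4% of all genes) and 0 above. The list median was only -0.12 relative to all genes, and -0.12 after trend removal. Then 22 lay below and 2 above, against 10.6% and 16.4% of all genes. RPN12a, a subunit of the regulatory particle, had 3177, 3419 and 3251 in Col-0 and 2603, 2516 and 2323 in SnRK1α1-OE (log2 fold change -0.40, SE 0.10, adjusted p = 0.0805), and PBE1, a subunit of the proteolytic core, had 4985, 5074 and 4991 in Col-0 and 4128, 3837 and 3901 in SnRK1α1-OE (log2 fold change -0.34, SE 0.09, adjusted p = 0.089). RPN8A and RPN6 (ATS9), also of the regulatory particle, had log2 fold changes of -0.36 (SE 0.10, adjusted p = 0.0919) and -0.36 (SE 0.10, adjusted p = 0.102). No member passed the main test, and 14 passed in the 18-library fit, all lower, where 6.42% of all genes passed downward. At EN 22 of the 54 lay above Col-0 and 0 below, against 7.01% and 3.28% of all genes.

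Salicylic acid defence varied more between wild-type libraries than between the lines. The summed value of 22 genes tested was 36770, 229100 and 190400 in Col-0 and 127500, 60530 and 46640 in SnRK1α1-OE, with the lowest and the highest library both from Col-0. Only NPR1, the salicylic acid co-receptor, lay below without overlap, at 1435, 1866 and 1659 in Col-0 and 1422, 1296 and 1307 in SnRK1α1-OE (log2 fold change -0.29, SE 0.12, adjusted p = 0.186); EDS1, a lipase-like defence regulator, had 2468, 5151 and 4640.0 in Col-0 and 3370.2, 2663 and 2448 in SnRK1α1-OE, and the groups overlapped. The median log2 fold change was -0.37 relative to all genes, and without Col-0 replicate 1 it was -0.98 with 19 of 22 below, against 38.0% of all genes. After trend removal it was -0.34, with 0 above and 0 below. How far the line differs in this list therefore depends on that single library. Among resistance genes of the NB-LRR class, of 113 tested 7 lay below (6.19%) and 1 above (0.885%), against 20.4% and 11.0% of all genes. Without Col-0 replicate 1, 87 lay below, where 38.0% of all genes did. After trend removal 17 lay above and 5 below, where the shares of all genes were 16.4% and 10.6%. AT5G35450, of the CC-NBS-LRR class, was the member that passed the adjusted p, at 688, 694 and 652 in Col-0 and 395, 399.7 and 349 in SnRK1α1-OE (log2 fold change -0.83, SE 0.11, adjusted p = 0.0378; trend-removed -0.55, adjusted p = 0.0744).

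Growth-related families pointed both ways. Of 53 SAUR genes tested, short auxin-responsive genes tied to cell expansion, 21 lay above Col-0 without overlap (39.6%) and 3 below. Over all genes 11.0% lay above and 20.4% below. The SAUR median was 0.56 relative to all genes and 0.24 after trend removal. Then 14 lay above and 3 below, against 16.4% and 10.6% of all genes. SAUR23 had 20.1, 20.8 and 18.8 in Col-0 and 55.6, 51.7 and 48.2 in SnRK1α1-OE (log2 fold change 1.33, SE 0.26, adjusted p = 0.0636), SAUR20 had 23.1, 14.8 and 13.1 in Col-0 and 53.5, 42.4 and 56.4 in SnRK1α1-OE (log2 fold change 1.55, SE 0.32, adjusted p = 0.0677), and AT5G18030 had 47, 31.7 and 40.6 in Col-0 and 85.5, 88.6 and 89.7 in SnRK1α1-OE (log2 fold change 1.14, SE 0.23, adjusted p = 0.0664). These 3 genes are close copies in a cluster on chromosome 5 and may share reads. No SAUR or cyclin gene passed the main test. At EN 1 of 53 SAUR genes lay above and 8 below, against 7.01% and 3.28% of all genes. Of 31 cyclin genes tested 2 lay above (6.45%) and 11 below (35.5%), or 3 and 7 after trend removal. AT4G34090, the member with the smallest unadjusted p, was higher, with log2 fold changes of 0.52 to 0.89 over the alternatives to the main test. Among those below were CYC3B at 142, 104 and 152 in Col-0 and 73.1, 68.7 and 81.0 in SnRK1α1-OE (log2 fold change -0.81, SE 0.21, adjusted p = 0.0908) and CYCA1;2 at 74.6, 73.3 and 85.2 in Col-0 and 53.3, 37.0 and 27.1 in SnRK1α1-OE (log2 fold change -1.02, SE 0.29, adjusted p = 0.101). Without Col-0 replicate 1, the highest library for this list, the median moved from -0.20 to -0.08. SCL28, a GRAS factor that promotes entry into mitosis, passed the adjusted p at 1246, 950.5 and 1124 in Col-0 and 597, 644 and 580.3 in SnRK1α1-OE (log2 fold change -0.86, SE 0.13, adjusted p = 0.0498), as did the GRAS factor SCL15 at 1070.4, 1028 and 1068 in Col-0 and 703, 580.4 and 615 in SnRK1α1-OE (log2 fold change -0.74, SE 0.11, adjusted p = 0.0498).

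The count for flavonoid and anthocyanin genes depended on Col-0 replicate 1. Of 24 tested 18 had a positive log2 fold change and 3 lay above without overlap, 0 below. Without that library 13 lay above and 2 below, and after trend removal of all 6 libraries 7 and 0. Over all genes the shares were 18.2% and 38.0% without that library, and 16.4% and 10.6% after trend removal. The highest wild-type library was level with the lowest library of the line (-0.03, -0.37 and -0.19 in Col-0 and -0.01, 0.19 and 0.40 in SnRK1α1-OE). MYBL2, a repressor of the pathway, had 116, 66.3 and 65.8 in Col-0 and 159, 169.9 and 187 in SnRK1α1-OE (log2 fold change 1.09, SE 0.25, adjusted p = 0.078), and the activator PAP1 had 583, 386 and 464 in Col-0 and 582, 756 and 807 in SnRK1α1-OE (log2 fold change 0.59, SE 0.18, adjusted p = 0.12). TT8 and the glucosyltransferase gene AT4G14090 overlapped between the groups.

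The remaining genes past the adjusted p of 0.05 were changed less than 2-fold. CIPK21, a protein kinase that acts with calcium sensors, fell from 1107, 1175 and 1203 to 584, 547 and 635 (log2 fold change -0.98, SE 0.11, adjusted p = 0.0206). ARP9, an actin-related protein, rose from 803, 760.2 and 840.3 to 1266, 1419.8 and 1288 (log2 fold change 0.72, SE 0.10, adjusted p = 0.0469). BT2, a BTB and TAZ domain protein that responds to nitrogen and sugar, had 2268, 2491 and 2552 in Col-0 and 3911, 3825 and 4660.5 in SnRK1α1-OE (log2 fold change 0.76, SE 0.11, adjusted p = 0.0498), and the bHLH factor BHLH112 had 1495, 1450.1 and 1537 in Col-0 and 957, 951 and 848 in SnRK1α1-OE (log2 fold change -0.70, SE 0.10, adjusted p = 0.0482). Higher were also the carboxylesterase CXE7, the lipid transfer protein LTP7, AT3G06070, the iron-responsive IRP3 (AT2G14247) and AT4G24350, with log2 fold changes of 0.67 to 0.99. Lower were the flavin monooxygenase AT1G12200 and the aspartyl protease AT5G10770, at -0.96 and -0.83.

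Other lists are given by their counts above and below without overlap, with those after trend removal in parentheses. Over all genes the shares were 11.0% and 20.4% (16.4% and 10.6%), and without Col-0 replicate 1 they were 18.2% and 38.0%. Of 23 core clock genes 4 and 3 (7 and 2) did not overlap, and of 16 clock output genes 2 and 3 (3 and 2). Counts were 4 and 3 (6 and 3) for the 16 abscisic acid receptors and phosphatases, and 6 and 5 (8 and 2) for the 23 sulfur genes, that is, 25% and 26.1% above. They were 2 and 5 (8 and 0) for the 25 nitrate and ammonium genes, and 3 and 4 (8 and 5) for the 33 autophagy genes. Of 45 cyclophilins 14 lay above, or 31.1%, and 9 below (13 and 7). Of 258 genes with a ribosomal protein in their product name 15 lay above and 35 below (22 and 40), and 82 and 41 without Col-0 replicate 1. Of 84 genes for heat shock proteins and factors 5 lay above and 24 below (9 and 11), and of 46 histone genes 6 and 2 (8 and 3). Chloroplast-encoded transcripts, which poly(A) selection captures poorly, had 18 above and 3 below of 109 tested (12 and 5).

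Across 163 product families with at least 15 tested genes, the highest medians relative to all genes were those of SAUR-like proteins (0.56), RmlC-like cupins (0.43), small nucleolar RNAs (0.39), polyketide cyclases (0.35) and CLAVATA3/ESR-related peptides (0.34). The lowest were multidrug resistance-associated transporters (-0.48), subtilases (-0.44), glutamate receptors (-0.39), leucine-rich receptor-like kinases (-0.39) and Dof factors (-0.38). Removing the length trend moved most of these values toward 0: trend-removed medians were 0.01 for small nucleolar RNAs, -0.02 for CLAVATA3/ESR-related peptides, -0.20 for the transporters, -0.22 for subtilases and -0.12 for the receptor-like kinases, whereas polyketide cyclases kept 0.31 and Dof factors moved to -0.50.

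The direction at ED was set beside that at EN, in which the 3 Col-0 and 3 SnRK1α1-OE libraries are separate from those at ED. Only 13 of 19408 genes (0.0670%) were called at EN. Of the 34 genes called at ED other than SnRK1α1, 31 were tested at EN, 7 were called in the same direction, and 20 had a log2 fold change within 0.5 of 0. A test of the difference itself, in which the effect of the line at EN is subtracted from that at ED, passed for 42 of 20041 genes (0.210%), 13 higher and 29 lower at ED; 5 of the 34 were among them. This count depended on single libraries, with 1132 genes when Col-0 ED replicate 1 was left out and 0 when Col-0 ED replicate 3 was. After trend removal 166 genes passed, of which 21 were among the 42.

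**Figure D5:**
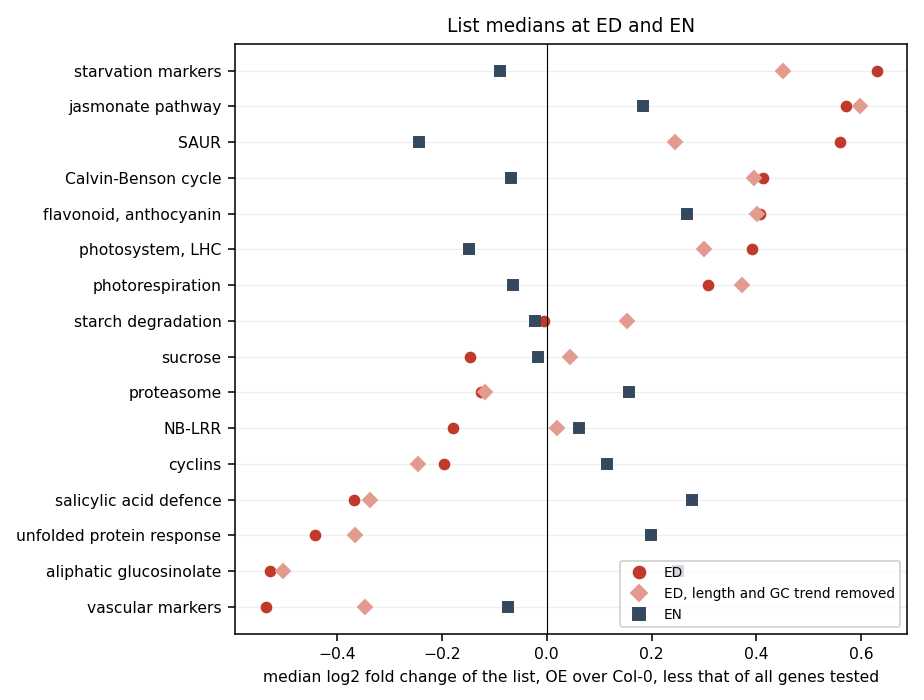
Median log2 fold change (SnRK1α1-OE over Col-0) of 16 gene lists relative to all genes, at ED (circles), at ED with the length and GC trend removed (diamonds) and at EN (squares). The glucosinolate, unfolded protein response, salicylic acid, NB-LRR, proteasome and cyclin lists lie below 0 at ED and above 0 at EN. The photosystem, Calvin-Benson, photorespiration, SAUR and starvation marker lists lie above 0 at ED and below 0 at EN. No trend was removed at EN, where median fold changes rose with gene length, from -0.06 in the shortest group to 0.12 in the longest. The part of that slope in these changes of sign was not tested.

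Genes were also sorted into time-of-day classes by their change between EN and ED in sesquiα2, whose libraries do not enter the comparison. The 1684 genes higher at ED there had a median fold change equal to that of all genes (0.00), and 14.1% lay above and 26.1% below Col-0 without overlap. The 1533 genes higher at EN had a median of 0.10, with 15.1% above and 8.68% below, and for the 16104 genes in neither class these shares were 10.3% and 21.2%. After trend removal the shares were 16.7% and 16.1% for genes higher at ED, and 20.9% and 6.78% for those higher at EN, whose median was 0.05. Without Col-0 replicate 1, 34.6% of the genes higher at ED and 32.8% of those higher at EN lay below, where 38.0% of all genes did.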

How the data were processed

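Poly(A) RNA of whole rosettes was sequenced, 3 libraries per genotype and time. Per the submitters' processing notes, the authors used HISAT2, SAMtools, featureCounts and edgeR with TAIR10; versions and the strand setting are not given in the sources used here. The deposited values are a signal and not raw reads. Per the supplement, they are edgeR pseudo-counts multiplied by trimmed mean of M-values (TMM) scaling factors, and their library totals are nearly equal. The deposited values gave back whole reads for 590994 of 590994 values (tolerance 0.1 reads), with 35497381 to 40130783 reads in the 6 ED libraries. Such depth limits counting error only, and p-values measure the spread between pools.

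Genes that reached a value of 10 in 3 or more of the 6 libraries were tested on log2(value + 1), a scale that understates fold changes of low genes, with limma 3.58.1 in R 4.3.3 (trend and robust settings, no block) and Benjamini-Hochberg adjustment over 19576 genes. Called means an adjusted p under 0.05 and at least a 2-fold change. Groups of 3 do not overlap when all libraries of one lie above all of the other; an exact permutation test of such groups cannot go below 0.1. The effect at ED less that at EN was tested with an interaction term over 12 libraries. Alternatives included edgeR 4.0.16 on recovered reads and DESeq2 1.42.0. The fits were also run on simulated reads in which 200 well-expressed genes were changed. The ED fit called all 200 and 1 unchanged gene, and the interaction test found 192 and 9 unchanged genes. The simulated libraries had no outlying library and no length trend, so these results do not show how the fits perform on the real libraries.

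The text names every called gene, the iron-responsive AT1G13609 included, and up to 4 members of each described list with the smallest unadjusted p. Other genes past the adjusted p, and members named to account for a list, were chosen after their values were seen. Members and lists were chosen with earlier results of these data known, and 32 genes whose annotated product was another protein were left out of lists. No set test was run. Promoters, names and coordinates are those of RefSeq TAIR10.1, and some promoter sequences are not reported here.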

Additional observations from a re-analysis of the deposited data

Results flagged for a closer look

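The genes below had an effect of SnRK1α1-OE at ED that differed from that at EN in the interaction test (limma, adjusted p under 0.05). Values are the log2 fold change at ED less that at EN.

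Higher at ED than at EN were AT1G52342 (1.41), AT5G61590, which encodes ERF107 (1.46), AT3G06070 (1.35), AT3G48360, which encodes BT2 (1.2), and AT5G18020, which encodes SAUR20 (1.97). Lower were AT3G03780, the methionine synthase MS2 (-1.61), AT2G01950, the receptor kinase BRL2 (-1.18), and the extensin-like AT2G43150 (-1.75). Lower also were AT3G30775, the proline dehydrogenase PRODH1 (-1.15), the glucosinolate genes AT1G16410 (CYP79F1, -1.70) and AT4G12030 (BAT5, -1.35), and AT1G56340 (CRT1a, -0.74). AT5G43500 (ARP9) had a difference of -0.83 while being higher in the line at both times, with means of 801 in Col-0 and 1325 in SnRK1α1-OE at ED and of 488.5 and 1439 at EN. After removal of the length and GC trend the test no longer passed for AT3G06070 (adjusted p = 0.0917), AT5G18020 (0.0779), AT2G01950 (0.264) and AT5G43500 (0.0734); the other genes named here still passed.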

How the results depend on the processing

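The number of called genes, 35 by the main test, was 32 and 34 with a pseudocount below 1 and with one of 4, 41 without a filter and 26 with a minimum value of 100. It was 82 (69 higher, 13 lower) with median-ratio scaling, which shifted the median of all genes by 0.09, and 83 (70 and 13) with quantile normalization. It was 216 (131 and 85) with the spread of all 18 libraries and 23 without the robust setting. The number with an adjusted p under 0.05, 54, became 44, 46, 68, 38, 170, 177, 1904 and 28 in the same order. Leaving out 1 library gave 4 to 548 called genes and 4 to 2137 past the adjusted p, the highest without Col-0 replicate 1 (213 higher, 335 lower) and the lowest without SnRK1α1-OE replicate 1; the counts called without Col-0 replicates 2 and 3 and SnRK1α1-OE replicates 2 and 3 were 12, 5, 56 and 6. Of the settings chosen after seeing the data, removal of the length and GC trend gave 81 and 516, edgeR on recovered reads 38 and 57, and DESeq2 293 (223 and 70) and 1823.

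The number of genes whose effect differed between ED and EN, 42, was 43 with either pseudocount, 18 with median-ratio scaling, 21 with quantile normalization, 5 without the robust setting and 166 (142 higher, 24 lower at ED) after trend removal. It ran from 0 to 1132 when 1 of 12 libraries was left out. The causes of these shifts were not tested.

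With the replicate number as a block, 19 genes were called, 19 passed the adjusted p, and 15 differed between ED and EN. The numbers did not pair the libraries: deviations of same-numbered ED libraries correlated at -0.469, 0.023 and -0.236.

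No called gene reversed in direction. After trend removal several list medians relative to all genes changed sign. The NB-LRR and sucrose lists went from -0.18 to 0.02 and from -0.15 to 0.05. The trehalose phosphate synthase and starch synthesis lists went from -0.04 to 0.15 and from -0.01 to 0.15. Cytosolic ribosomal protein and chloroplast-encoded genes went the other way, from 0.13 to -0.03 and from 0.18 to -0.03. Over all alternatives 985 list medians moved by less than the spread between replicates and 57 by more. The flower list could not be computed at a minimum value of 100.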

Other observations

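Among the genes that passed the test of a differing effect at the 2 times, several lay outside the lists described. MIOX2, an inositol oxygenase of cell wall precursor synthesis, had mean values of 32.9 in Col-0 and 7.36 in SnRK1α1-OE at ED, and of 123.9 and 227.2 at EN. NRT1.5, which loads nitrate into the xylem, had 540.0 and 314.1 at ED, and 2082 and 2765 at EN. EDA9, a phosphoglycerate dehydrogenase of serine synthesis, had 7516 and 4842 at ED, and 2692 and 3241 at EN. HBI1, a bHLH factor that promotes cell elongation, and GASA6, a gibberellin-regulated peptide gene, differed in the other direction: HBI1 had 1482 and 2127 at ED, and 5812 and 4459 at EN, and GASA6 had 465.0 and 867.8 at ED, and 4682 and 3122 at EN. After trend removal the difference still passed for MIOX2 (adjusted p = 0.0194) and HBI1 (0.0351), but not for NRT1.5 (0.0763), EDA9 (0.189) and GASA6 (0.13).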
